A study of Mus musculus with 18 samples.

Results

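The keratin genes of the mouse were followed in sorted thymic epithelial cells, in mice with Aire (WT) and in Aire knockout mice (KO). Members were all genes of the deposited tables whose symbol is Krt followed directly by a digit, which gave 52 of 23063 genes. They comprised 27 type I keratins, 24 type II keratins and Krt222, a keratin-like gene that was kept apart as neither. RNA was sequenced from 3 sorted populations of each genotype: cortical thymic epithelial cells (cTEC) and medullary thymic epithelial cells of a low and a high gate (mTEClo and mTEChi). Each of the 6 groups had 3 libraries, 18 in all, from mice of 6 to 8 weeks. The strain label was B6.129S2-Airetm1.1Doi/J for every library, WT included, and no further treatment or allele was named. The labels do not say what the low and high gates measured, nor whether libraries of a group came from separate or pooled mice, so p-values measure only the spread between these libraries.

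Keratins are the intermediate filament proteins of epithelia. A filament is built from pairs of a type I and a type II chain, and most cells make characteristic partners: KRT14 with KRT5 in the basal layer of stratified epithelium, KRT18 with KRT8 in simple epithelium, KRT10 with KRT1 in the suprabasal epidermis. Hair keratins form the hair shaft, and another set forms the inner root sheath that surrounds it. In the thymus, Krt8 is classically used as a cortical marker and Krt5 and Krt14 as medullary markers. Aire is a nuclear protein of mature medullary cells that promotes transcription of many genes otherwise restricted to other tissues, a process called promiscuous gene expression.

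Library depth was 4.54 to 18.1 Gb of bases aligned to genes, and both extremes were WT mTEClo libraries. Libraries of the same group correlated at 0.971 to 0.995 across genes on the log2 scale. Levels are RPKM, coverage scaled to the length of the gene model and the size of the library. Aire RNA was 658, 681 and 693 RPKM in WT mTEChi and 1126, 1001 and 1091 in KO mTEChi. A value for the whole gene does not separate the deleted part from the rest, so it does not check the genotype. Psmb11, a thymoproteasome subunit that marks cTEC, was 10.1 to 21.8 RPKM in cTEC libraries and 0.569 to 2.12 elsewhere. Of the other genes of the cTEC marker list, Prss16 and Ly75 were also higher in every cTEC library than in any other library. Ctsl and Cd83 overlapped with other groups, and Tbata was higher in mTEChi (208 to 392) than in cTEC (70.0 to 147). The summed RNA of the 6 genes of the mTEChi marker list, Aire among them, was 5121 to 5445 RPKM in WT mTEChi, 7136 to 8094 in KO mTEChi and 1245 to 2253 in the other groups. H2-Aa made up most of every sum, at 4167 to 6789 in mTEChi libraries and 1197 to 2162 elsewhere. In sorted bulk samples, fewer cells of a type and less RNA per cell cannot be told apart.

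The keratins lie in 2 clusters of mm10. On chromosome 11, 27 genes between 99233098 and 100269871 hold 26 type I keratins and Krt222. On chromosome 15, 25 genes between 101349571 and 102032026 hold the 24 type II keratins and Krt18, the type I gene that lies beside Krt8. Of the 52 spans, 50 carry the same symbol in RefSeq. The span listed as Krt83 (101433102 to 101438804 of chromosome 15) lies over RefSeq's Krt87, and the span listed as Krt85 is 476 bases long (101431014 to 101431489) with no RefSeq keratin over it, so both names are uncertain. Near-identical copies can share reads, which makes the split between Krt6a and Krt6b, between Krt33a and Krt33b, among Krt14, Krt16, Krt17 and Krt42, and among Krt81, Krt83 and Krt86 uncertain.

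Keratin promoters share the letters TATAAA at the place of a TATA box more often than other promoters, and examples with and without it are shown for this reason. RefSeq (GRCm38.p6) gave a promoter of 300 bases, from 250 before to 50 after the start, for 35 keratins, and for 34 of them the start lay within 100 bases of the tables' gene start. TATAAA on the gene's strand, starting 40 to 20 bases before the start, was in 13 of these 34 (38.2%) against 1.99% of 32851 RefSeq promoters. It was found in 5 of 7 inner root sheath keratins, 4 of 9 hair shaft keratins and 3 of 9 suprabasal keratins, in 1 of 5 simple keratins, and in 0 of 1 basal and 0 of 3 stress keratins. On either strand and anywhere in the window, TATAAA was in 55.9% of keratin promoters and 13.6% of all. GGGCGG, a GC box sequence, was on either strand in 5.88% of keratin promoters and 35.7% of all. A match of letters is a description of the sequence and not a binding site.

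The 100 bases before the start are printed 5′ to 3′ on the gene's strand with TATAAA in capitals. The first set, chosen because the letters are there, holds 2 inner root sheath keratins, Krt73 (chr15:101802361-101802460, minus strand) and Krt71 (chr15:101743098-101743197, minus strand), the suprabasal Krt10 (chr11:99389365-99389464, minus strand) and the simple-type Krt20 (chr11:99438154-99438253, minus strand). The last lines show the abundant Krt5 (chr15:101712906-101713005, minus strand) and Krt18 (chr15:102028116-102028215, plus strand), whose windows hold no TATAAA at that place. Krt13, Krt36 and Krt72, with large differences between the mTEChi groups, hold none there either.
Krt73: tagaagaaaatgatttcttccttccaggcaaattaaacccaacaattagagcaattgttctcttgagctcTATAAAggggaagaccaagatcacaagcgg
Krt71: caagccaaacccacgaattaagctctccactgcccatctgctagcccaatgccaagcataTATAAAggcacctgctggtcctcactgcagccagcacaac
Krt10: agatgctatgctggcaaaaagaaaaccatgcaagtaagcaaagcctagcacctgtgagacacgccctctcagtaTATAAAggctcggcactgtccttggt
Krt20: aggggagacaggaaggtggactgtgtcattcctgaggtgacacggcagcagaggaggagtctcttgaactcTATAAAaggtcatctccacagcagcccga
Krt5: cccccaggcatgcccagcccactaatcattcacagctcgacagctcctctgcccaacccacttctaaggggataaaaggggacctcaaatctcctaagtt
Krt18: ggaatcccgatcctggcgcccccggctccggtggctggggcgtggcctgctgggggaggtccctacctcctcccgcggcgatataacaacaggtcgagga

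WT mTEChi held the widest range of keratins. Counting a gene as detected at 1 RPKM or more, WT mTEChi libraries detected 46, 44 and 45 of the 52 keratins, KO mTEChi libraries 27, 29 and 27, WT mTEClo 22, 25 and 23, KO mTEClo 23, 22 and 21, WT cTEC 14, 14 and 17, and KO cTEC 26, 21 and 20. The WT mTEChi counts did not overlap with those of any other group. The group with the highest mean was WT mTEChi for 41 of the 52 keratins, among them all 15 hair shaft, all 8 inner root sheath and all 12 suprabasal genes. The other 11 peaked in WT mTEClo (4), KO mTEClo (3), KO cTEC (2) or KO mTEChi (2). The share of all genes that peaked or were detected in each group was not counted. By limma, 46.6% of all tested genes were higher in WT mTEChi than in WT cTEC, and 41.6% higher than in WT mTEClo. Among the hair shaft and inner root sheath genes, 9 reached 0.1 RPKM in at least 3 libraries only through WT mTEChi.

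**Figure D1:**
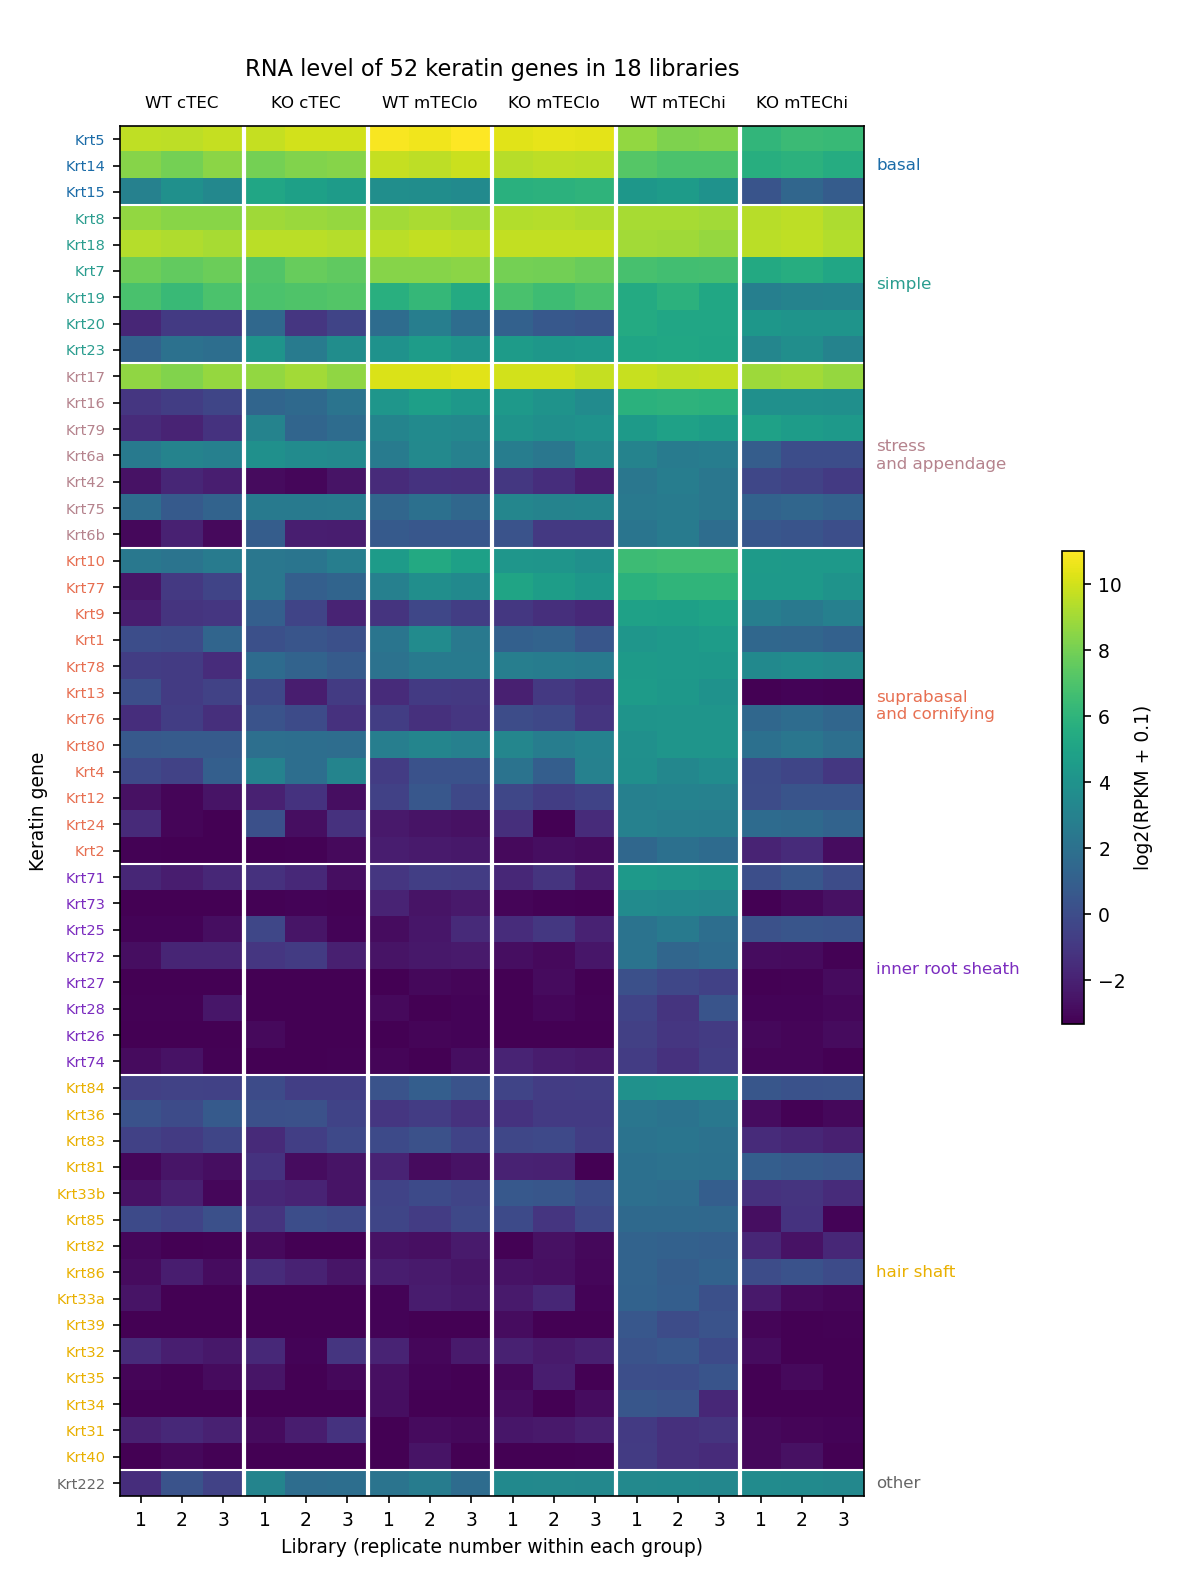
Level of each of the 52 keratin genes (rows, grouped by role) in each of the 18 libraries (columns, 3 per group), as log2(RPKM + 0.1). The suprabasal, inner root sheath and hair shaft rows are brightest in the 3 WT mTEChi columns, and Krt13 is darkest in the 3 KO mTEChi columns.

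Breadth and amount did not go together. The summed keratin RNA was largest in mTEClo, with 5796 ± 299 RPKM (SD, n = 3) in WT and 5112 ± 186 (SD, n = 3) in KO. In mTEChi it was 3108 ± 173 (SD, n = 3) in WT and 2237 ± 217 (SD, n = 3) in KO, and in cTEC 2866 ± 202 (SD, n = 3) in WT and 3324 ± 169 (SD, n = 3) in KO. A handful of genes made up most of it: the top 5 keratins of a group held a mean of 75.4% of keratin RPKM in WT mTEChi and 87.3% to 90.4% in the other groups.

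The make-up by role differed between populations. Basal keratins held a mean of 39.9% of keratin RPKM in WT cTEC, 46.9% in WT mTEClo, 15.8% in WT mTEChi and 5.91% in KO mTEChi. Simple keratins held 40.6% in WT mTEChi and 67.0% in KO mTEChi. Suprabasal keratins held 10.1% in WT mTEChi and 3.25% in KO mTEChi, and at most 1.28% in the other groups. Hair shaft and inner root sheath keratins, though 23 of the 52 genes, held 1.47% and 1.29% in WT mTEChi. The ratio of type I to type II RNA was 1.46 in WT mTEChi and 1.51 in KO mTEChi, and 0.985 to 1.19 in the cTEC and mTEClo groups.

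**Figure D2:**
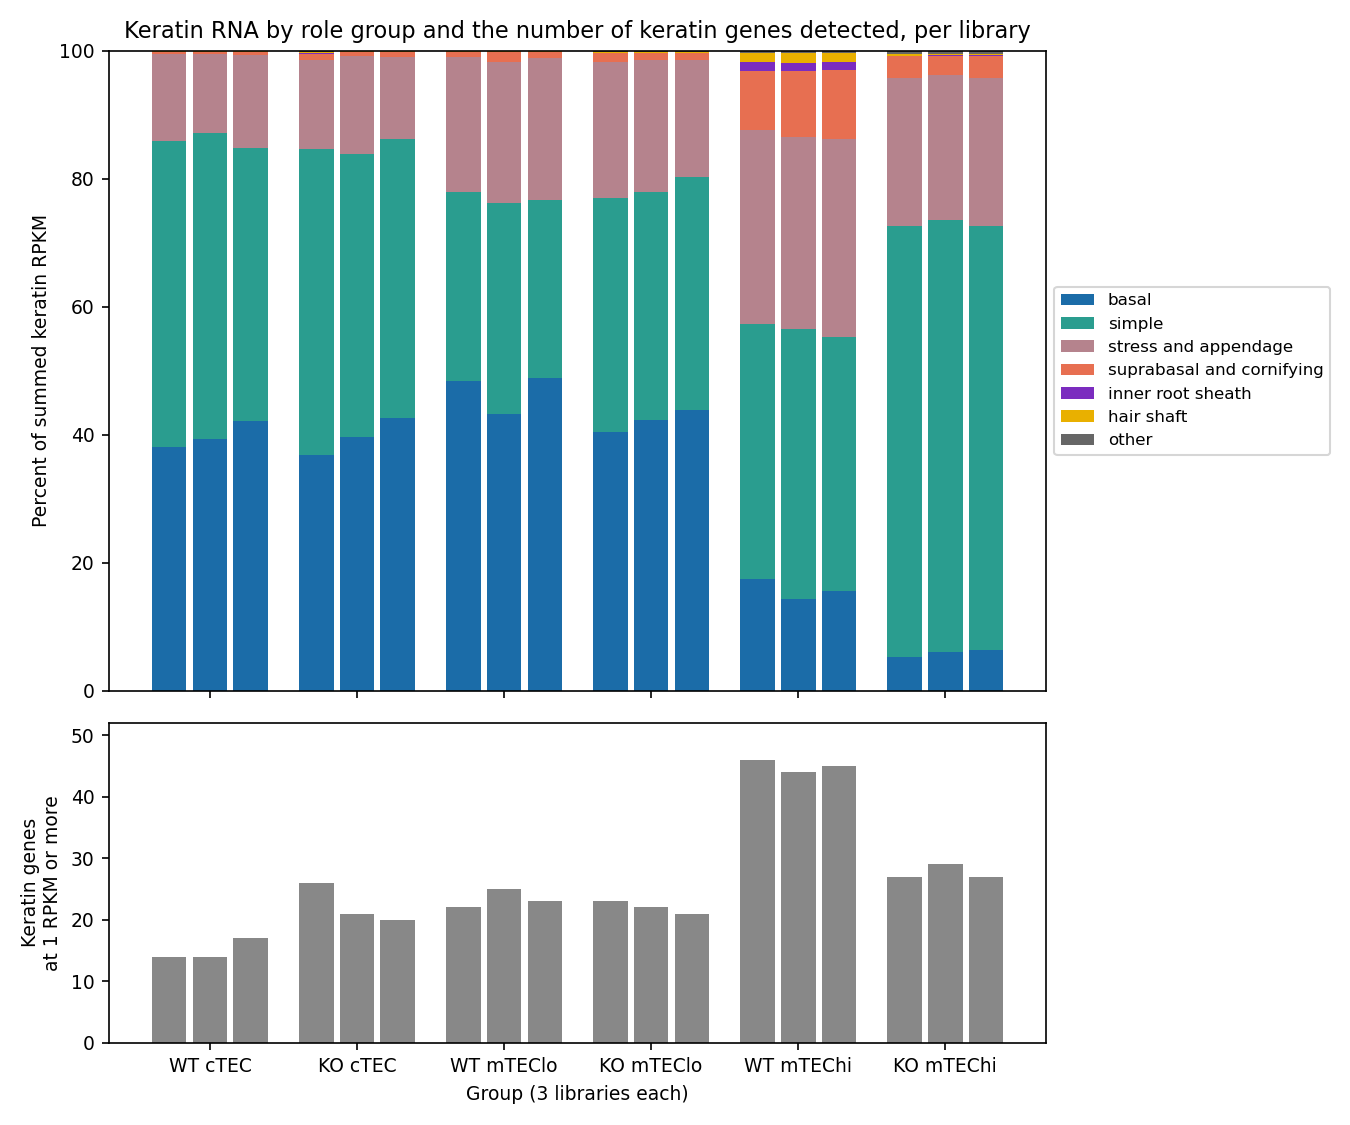
Upper panel: percent of the summed keratin RPKM held by each role group in each library (bars, 3 per group). Lower panel: the number of keratin genes at 1 RPKM or more per library. Basal keratins take the lower 15.8% on average in WT mTEChi and 5.91% in KO mTEChi, and the WT mTEChi bars of the lower panel reach 44 to 46 genes.

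In mTEChi, the keratins were lower without Aire across nearly all roles. Of the 52, 46 were lower in KO and 2 were higher, Krt8 and Krt18 (limma on log2 of RPKM + 0.1, adjusted p under 0.05). Over all 19451 tested genes, 52.8% were lower and 9.57% higher. The median log2 difference was -2.35 over keratins and -0.39 over all tested genes. With quantile normalisation the split over all genes turned to 6064 higher and 4808 lower, and centred on 16 housekeeping genes to 5551 higher and 6064 lower, while the keratins stood at 1 higher and 41 lower, and at 2 higher and 44 lower. For 48 keratins the 3 KO libraries lay below the 3 WT libraries, for 2 they lay above and for 2 they overlapped. Over all tested genes, the KO libraries lay below the WT libraries for 60.1% and above for 14.1%.

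All 52 keratins passed the filter on low values, but 9 of them did so only through the WT mTEChi libraries and so had to differ. These were 5 inner root sheath keratins (Krt26, Krt27, Krt28, Krt73 and Krt74) and 4 hair shaft keratins (Krt34, Krt35, Krt39 and Krt40). Among the 43 that passed in the other libraries, 37 were lower and 2 higher, with a median log2 difference of -2.15, beside 8621 lower (48.7%) and 1862 higher over the 17704 genes that passed in the same way. The mean level in KO mTEChi as a share of that in WT mTEChi had a median of 22.4% over these 43 keratins, was under 10% for 14 and under 50% for 37. By role, the median share among the 43 was 5.77% for 3 inner root sheath and 4.43% for 11 hair shaft keratins, 19.3% for suprabasal, 22.8% for basal, 25.4% for stress and 42.2% for simple keratins.

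Markers of other cells also differed between the mTEChi groups. The summed list of 8 thymocyte markers was 36.0 to 60.4 RPKM in WT mTEChi and 14.5 to 26.7 in KO. The 4 B cell markers summed to 6.71 to 8.38 in WT and 4.37 to 5.21 in KO, and the 6 cTEC markers to 339 to 387 in WT and 441 to 493 in KO. Tbata made up most of both cTEC sums, at 208 to 215 in WT mTEChi and 347 to 392 in KO. Ly75 and Cd83 were also higher in KO. Ctsl (83.0 to 121 in WT and 21.2 to 35.1 in KO) and Psmb11 (1.52 to 1.95 and 0.569 to 0.912) were lower, and Prss16 overlapped. The 6 dendritic cell and macrophage markers summed to 329 to 359 in WT and 337 to 368 in KO, but Lyz2, a lysozyme, made up most of both sums. Of the other 5, 4 were lower in KO without overlap. Emr1, a macrophage receptor, was 4.76 to 5.16 in WT and 0.123 to 0.256 in KO, and the integrin Itgam was 5.36 to 6.56 and 0.608 to 0.735. Csf1r, the receptor of a macrophage growth factor, was 6.35 to 7.43 in WT and 2.65 to 4.03 in KO, and the integrin Itgax was 1.18 to 1.38 and 0.398 to 0.524. Flt3 overlapped. No gene of these lists was at 0 in all libraries of either group. The part of these differences in the keratin result was not tested.

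All 3 basal keratins were lowest in KO mTEChi. Krt5, the type II chain of basal cells, stood at 1874, 1636 and 2055 RPKM in WT mTEClo and 1309.7, 1412 and 1373 in KO mTEClo. It was 408, 297 and 323 in WT mTEChi and 67.9, 86.1 and 80.5 in KO mTEChi. The KO mTEChi libraries were below every other library, with a log2 difference from WT mTEChi of -2.12 (SE 0.143, limma adjusted p = 3.63e-09).

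Krt14, the type I partner of Krt5, fell from 149, 121 and 125 RPKM in WT mTEChi to 50.9, 58.6 and 46.0 in KO mTEChi. Its log2 difference was -1.34 (SE 0.141, limma adjusted p = 6.13e-07), with no overlap of libraries. In mTEClo its levels were 852, 771 and 937 in WT and 698, 774 and 728 in KO, which overlapped.

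Krt15, a keratin of basal and hair bulge cells, went in opposite directions in the medullary populations. It was 13.3, 13.0 and 11.3 RPKM in WT mTEClo and 53.6, 59.8 and 64.0 in KO mTEClo, but 18.7, 23.3 and 15.6 in WT mTEChi and 1.23, 2.53 and 1.71 in KO mTEChi. The log2 differences were 2.23 (limma adjusted p = 5.92e-05) and -3.36 (limma adjusted p = 6.96e-09), and no KO library overlapped the WT libraries in either population. The difference between these effects was -5.59 (SE 0.339, limma adjusted p = 3.97e-09).

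**Figure D3:**
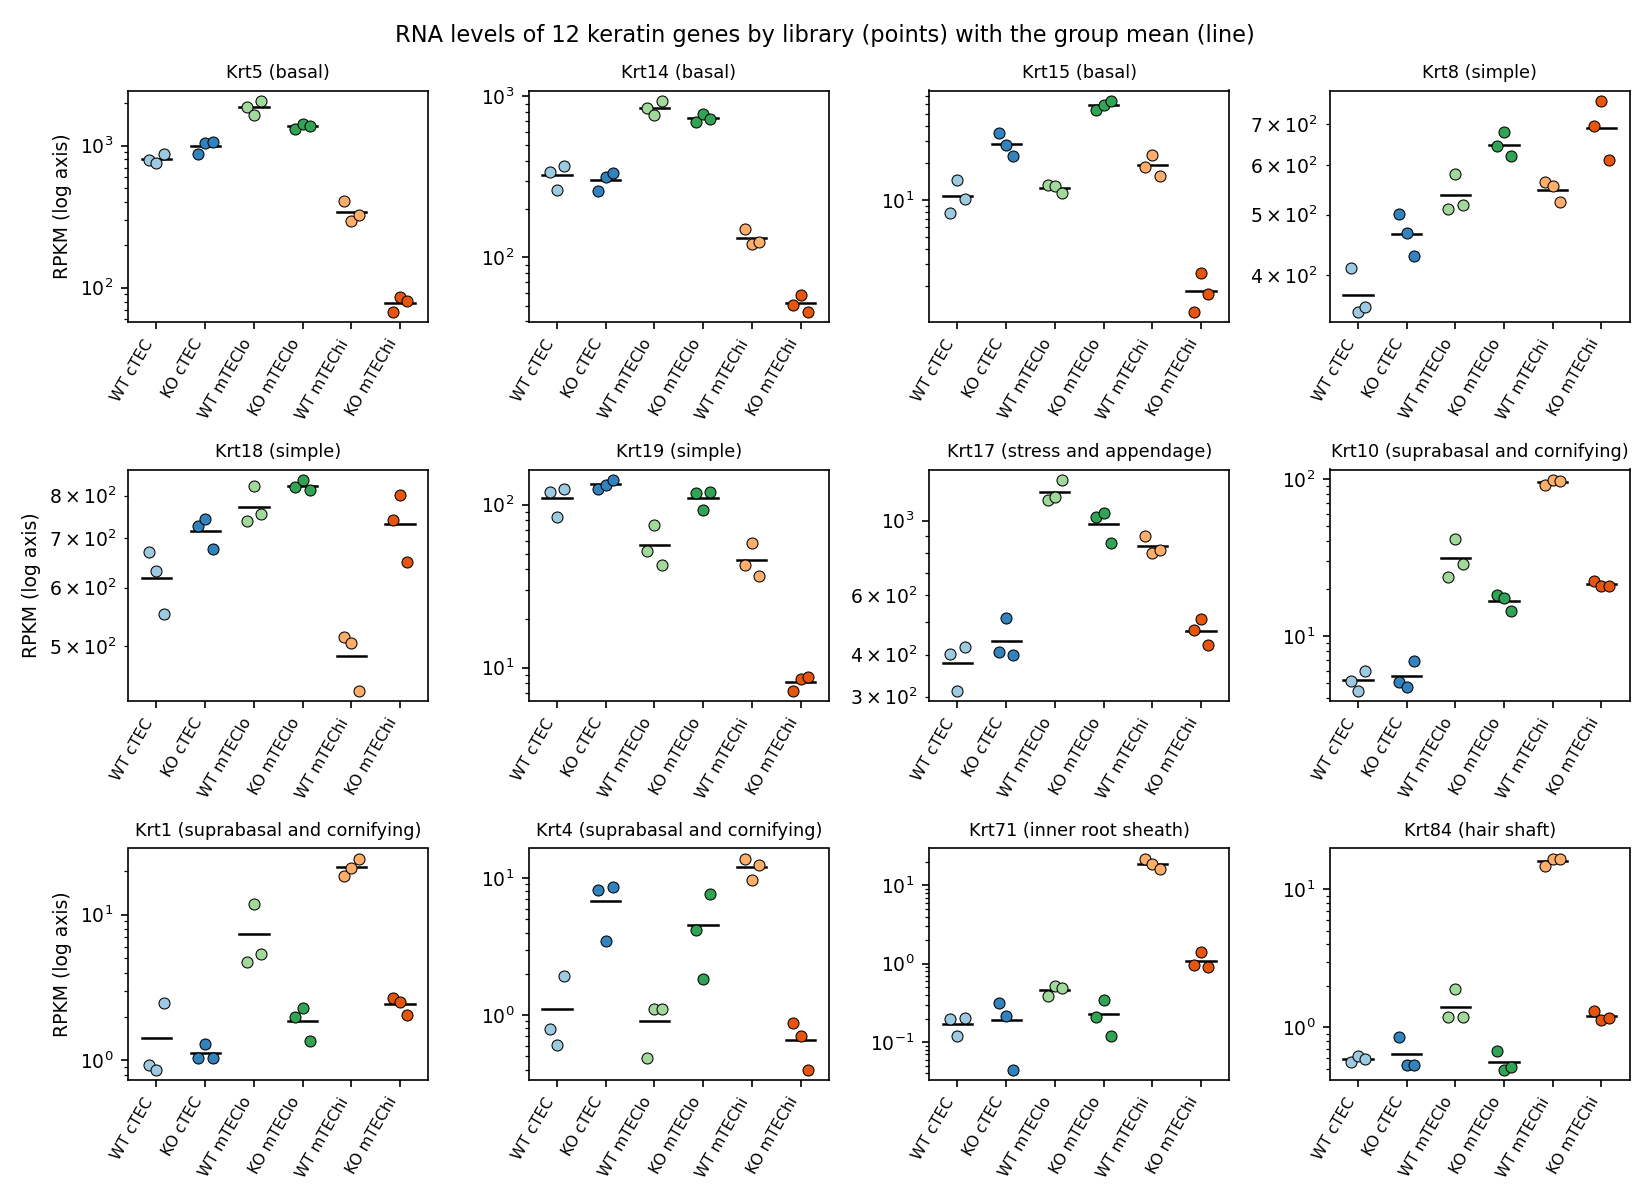
RPKM on a log axis of 12 keratins by group, each point a library and each line the mean of 3. Krt5, Krt14 and Krt19 are lowest in KO mTEChi, Krt15 is highest in KO mTEClo, Krt8 is highest in the KO medullary groups, and Krt71 and Krt84 stand out in WT mTEChi.

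Among the simple keratins, the main pair rose in KO mTEChi. Krt18 was 515, 505 and 435 RPKM in WT mTEChi and 742, 802 and 651 in KO mTEChi, a log2 difference of 0.59 (SE 0.121, limma adjusted p = 0.000493). Its partner Krt8 was 564, 557 and 524 in WT and 695, 762 and 612 in KO, a log2 difference of 0.33 (SE 0.112, limma adjusted p = 0.0189). All KO libraries were above all WT libraries for both genes. Relative to the median of all tested genes, the log2 differences were 0.99 and 0.72. The call of Krt8 was lost with quantile normalisation (0.13, limma adjusted p = 0.329) and when any of 3 libraries was left out: KO mTEChi replicate 1 (0.32, adjusted p = 0.0522) or replicate 2 (0.25, 0.079), or WT mTEChi replicate 3 (0.29, 0.0625).

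Other simple keratins moved the opposite way. Krt19, a keratin of ducts and of some stem cell compartments, was 42.8, 58.0 and 36.3 RPKM in WT mTEChi and 7.21, 8.51 and 8.77 in KO (log2 difference -2.45, limma adjusted p = 4.21e-08). Krt7, found in ductal and glandular epithelium, was 116, 102 and 106 in WT and 41.5, 48.2 and 35.9 in KO (-1.37, limma adjusted p = 2.89e-07). For both genes every KO library was below every WT library.

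Krt23 was 34.6, 37.6 and 34.5 RPKM in WT mTEChi and 9.40, 13.2 and 8.35 in KO (-1.80, limma adjusted p = 7.06e-05). Krt20, a keratin of intestinal and urothelial surface cells, was 43.8, 35.2 and 35.6 in WT and 18.9, 16.7 and 16.7 in KO. The groups did not overlap for Krt20, but the log2 difference of -1.12 (SE 0.479) missed the threshold (limma adjusted p = 0.0527). Krt20 passed as lower with a pseudocount of 1 (limma adjusted p = 0.00461), quantile normalisation (0.0495) and the mTEChi libraries fitted alone (1.83e-05), and missed under the other alternatives.

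Of the 7 stress and appendage keratins, which are made in wounds and in parts of the hair follicle, 6 fell in KO mTEChi. Krt17 was the most abundant, at 899, 800.3 and 817 RPKM in WT mTEChi and 474, 509 and 428 in KO (log2 difference -0.84, limma adjusted p = 0.000119). Krt16 was 55.7, 62.0 and 55.8 in WT and 14.7, 14.7 and 13.9 in KO (-1.99, limma adjusted p = 1.31e-06). Krt6a, a type II partner of Krt16, was 8.40, 6.25 and 6.56 in WT and 1.74, 0.943 and 0.947 in KO (-2.49, limma adjusted p = 7.51e-07). None of the 3 genes had overlapping libraries.

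Krt75, a keratin of the companion layer of the hair follicle, was 5.51, 6.09 and 5.09 RPKM in WT mTEChi and 2.14, 2.59 and 2.11 in KO (-1.25, limma adjusted p = 5.59e-05). The remaining stress keratin, Krt79, known from the upper hair follicle, stood at 21.9, 29.0 and 25.0 in WT and 29.1, 24.6 and 20.9 in KO, which overlapped (-0.03, limma adjusted p = 0.939). Krt222 overlapped as well, at 10.7, 11.2 and 9.64 in WT and 11.8, 11.7 and 10.4 in KO (0.10, limma adjusted p = 0.826).

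Of the 12 suprabasal and cornifying keratins, 11 fell in KO mTEChi, with a median log2 difference of -2.37. Krt10, the type I keratin of the spinous epidermis, was 90.9, 98.4 and 96.9 RPKM in WT mTEChi and 22.5, 20.8 and 20.9 in KO (-2.15, SE 0.175, limma adjusted p = 3.32e-08). Krt1, its type II partner, was 18.5, 20.8 and 24 in WT and 2.67, 2.53 and 2.06 in KO (-3.07, SE 0.351, limma adjusted p = 1.5e-06). For both genes the 3 KO libraries lay below the 3 WT libraries. Against KO mTEClo, the log2 differences of 0.36 for Krt10 (limma adjusted p = 0.082) and 0.37 for Krt1 (limma adjusted p = 0.373) did not pass.

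Krt13 had the largest fitted difference of the 52 keratins. Krt13, the type I keratin of oral and oesophageal epithelium, was 23.6, 19.8 and 16.0 RPKM in WT mTEChi, listed at 0 in 1 KO mTEChi library and at 0.00946 and 0.0049 in the other KO libraries. Its log2 difference was -7.55 (SE 0.411, limma adjusted p = 3.01e-10). In WT mTEClo it was 0.245, 0.44 and 0.413, above the KO mTEChi libraries. Krt4, the type II partner, was 13.8, 9.76 and 12.5 in WT mTEChi and 0.88, 0.707 and 0.40 in KO (-4.03, limma adjusted p = 4.01e-06).

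Others of this role fell less. Krt77, a relative of Krt1, was 55.9, 66.1 and 66.0 RPKM in WT mTEChi and 20.4, 20.4 and 16.5 in KO (-1.71, limma adjusted p = 0.00251). Krt9, a keratin of footpad skin, was 29.4, 28.4 and 31.3 in WT and 6.97, 5.48 and 7.60 in KO (-2.15, limma adjusted p = 0.00161). Krt78 kept the largest share of its WT level in this role (54.4%), at 22.2, 20.4 and 20.1 in WT and 11.2, 12.3 and 10.7 in KO (-0.87, limma adjusted p = 0.00196).

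That call of Krt78 was lost with centring on housekeeping genes (-0.45, limma adjusted p = 0.0877). Krt76, a palate keratin, fell by 2.59 on the log2 scale (limma adjusted p = 1.32e-05) and Krt80, a widely distributed keratin of differentiating cells, fell by 2.02 (limma adjusted p = 5.67e-09). Krt24 was the exception, at 7.86, 6.84 and 6.67 RPKM in WT and 3.13, 2.87 and 2.30 in KO, without overlap but short of the threshold (-1.34, SE 0.625, limma adjusted p = 0.0731). Krt24 passed as lower with a pseudocount of 1 (limma adjusted p = 5.56e-05), a replicate block (0.0302) and the mTEChi libraries fitted alone (3.04e-05), and missed under the other alternatives.

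Of the 8 inner root sheath keratins, 5 passed the filter only through WT mTEChi, and the other 3, Krt25, Krt71 and Krt72, all fell in KO mTEChi, with a median log2 difference of -4.01. Krt73, of the cuticle of the sheath and among the 5, was 12, 10.9 and 9.94 RPKM in WT mTEChi and 0, 0.0246 and 0.0537 in KO. Krt71, present in all sheath layers, was 21.7, 18.7 and 16.2 in WT and 0.974, 1.39 and 0.897 in KO (-4.01, SE 0.34, limma adjusted p = 5.21e-08). Krt72 was 4.22, 2.54 and 3.18 in WT and 0.0373, 0.0326 and 0.00443 in KO (-4.75, SE 0.317, limma adjusted p = 3.21e-09).

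Outside WT mTEChi these genes were near the floor of the tables. Krt73 did not exceed 0.171 RPKM and Krt71 did not exceed 0.525 in any cTEC or mTEClo library. Krt71 in KO mTEChi was above all KO mTEClo libraries (0.208, 0.348 and 0.121; log2 difference 1.91, limma adjusted p = 0.000111), whereas Krt73 did not pass between these groups (0.22, limma adjusted p = 0.317).

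Of the 15 hair shaft keratins, 4 passed the filter only through WT mTEChi, and the other 11 all fell in KO mTEChi, with a median log2 difference of -3.42. Krt84, a type II hair keratin also found in tongue and nail, was the most abundant, at 14.8, 16.6 and 16.5 RPKM in WT mTEChi and 1.32, 1.12 and 1.16 in KO (-3.63, SE 0.202, limma adjusted p = 3.82e-10). Krt36, a type I keratin of nail and tongue papillae, was 4.81, 4.27 and 5.25 in WT and 0.0416, 0.00762 and 0.0251 in KO (-5.29, SE 0.24, limma adjusted p = 3.61e-11). Krt36 in KO mTEChi was below all other groups, including WT cTEC at 1.13, 0.855 and 1.56.

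The rest of the hair shaft group was at 0.206 to 4.56 RPKM in WT mTEChi libraries. Krt34, named after its values were seen and one of the 4, was listed at 0 in all 3 KO mTEChi libraries and at 1.32, 1.15 and 0.206 in WT. Krt86 was at 2.24, 1.79 and 2.19 in WT and 0.892, 1.12 and 0.854 in KO (-1.04, limma adjusted p = 0.00194). The call of Krt86 was lost with a pseudocount of 0.01 (-1.11, limma adjusted p = 0.0593), and with quantile normalisation its value was 0.061. For Krt33b and Krt31 the log2 differences were -2.89 (limma adjusted p = 6.5e-07) and -2.01 (limma adjusted p = 2.66e-05), the latter lost with quantile normalisation (-0.23, limma adjusted p = 0.529). Reads shared between copies and low levels make single values of this group uncertain.

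The WT populations differed in many keratins. From cTEC to mTEClo, 25 of 52 keratins were higher and 3 lower, beside 24.6% higher and 18.2% lower over all tested genes. From mTEClo to mTEChi, 44 were higher and 5 lower, beside 41.6% and 31.1%, and 35 higher and 5 lower among the 43 keratins that passed the filter without WT mTEChi. From cTEC to mTEChi, 46 were higher and 5 lower, beside 46.6% and 31.8%. The 46 include the 9 keratins that passed the filter only through WT mTEChi and so had to be higher there. These comparisons share libraries, so their counts are not independent.

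In WT, 2 of 3 basal and 5 of 7 stress keratins were higher in mTEClo than in cTEC. Krt17 rose by 1.69 on the log2 scale (limma adjusted p = 2.02e-07), Krt14 by 1.40 (limma adjusted p = 9.98e-07) and Krt5 by 1.2 (limma adjusted p = 5.63e-06). Krt16 rose most, by 5.12 (limma adjusted p = 4.43e-10), from 0.39, 0.497 and 0.702 RPKM in WT cTEC to 18.3, 26.9 and 19.9 in WT mTEClo. Krt8, used as a cortical marker, was 409.6, 349 and 355 in WT cTEC and 510.3, 582 and 519 in WT mTEClo, so its RNA was higher in mTEClo (0.53, limma adjusted p = 0.00112). Krt19, Krt31 and Krt36 were the 3 lower genes, Krt19 by -0.97 (limma adjusted p = 0.00104).

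In WT mTEChi, the 5 keratins lower than in mTEClo were Krt14 (-2.70, limma adjusted p = 1.22e-10), Krt5 (-2.44), Krt7 (-1.69), Krt18 (-0.68) and Krt17 (-0.54). These 5 were abundant in WT mTEClo, where the least abundant, Krt7, was 344, 334 and 368 RPKM. Among the keratins that passed the filter without WT mTEChi, all 12 suprabasal, 3 inner root sheath and 11 hair shaft keratins were higher, the largest rises being Krt9 (5.63) and Krt13 (5.42). Krt8, Krt19 and Krt6a did not pass.

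The step from mTEClo to mTEChi was also compared within KO. In KO, 13 keratins were higher and 19 lower in mTEChi, beside 23.4% and 43.7% of all tested genes. Centred on housekeeping genes the split was 25 higher and 15 lower. With that centring, 8650 (44.5%) of all tested genes were higher and 4342 (22.3%) lower. Both keratin splits lay near the shares of all tested genes. Of the 44 keratins higher in the WT step, 13 (29.5%) were higher in the KO step, 13 were lower and 18 did not pass. The 44 include the 9 keratins that passed the filter only through WT mTEChi and so had to be higher in WT. None of these 9 was higher in the KO step, and Krt74 was the only one lower. The matching shares over all genes higher in the WT step were not counted. The 13 higher genes included Krt9 (4.12, limma adjusted p = 2.23e-06), Krt24 (3.6, limma adjusted p = 8.6e-05) and Krt20 (3.38, limma adjusted p = 1.06e-05). Among the lower genes were Krt15 (-5.0), Krt5 (-4.13), Krt14 (-3.83) and Krt19 (-3.74), with limma adjusted p from 1.4e-12 to 1.64e-10.

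The difference between the genotype effects in mTEChi and in mTEClo was tested directly. It was negative for 42 keratins and positive for 1, Krt18 (0.50, limma adjusted p = 0.026), beside 40.9% and 6.01% of all tested genes. Among the 43 keratins that passed the filter without WT mTEChi it was negative for 33 and positive for 1. With quantile normalisation 38 keratins were negative and 0 positive, beside 3550 and 4559 of all tested genes, and centred on housekeeping genes 38 and 2, beside 3801 and 7207. For Krt8 the difference of 0.05 did not pass (limma adjusted p = 0.808). The largest differences were Krt13 (-7.23, limma adjusted p = 8.37e-08), Krt4 (-6.11, limma adjusted p = 4.43e-06) and Krt15 (-5.59).

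In mTEClo the genotypes differed in few keratins. Of 52, 6 (11.5%) were higher and 6 (11.5%) lower in KO, beside 7.93% and 8.04% of all tested genes. The median log2 difference was -0.05 over keratins and -0.04 over all tested genes. Centred on housekeeping genes, 5 keratins were higher and 14 lower, beside 814 higher and 7086 lower over all tested genes. The 6 dendritic cell and macrophage markers summed to 24.2 to 31 RPKM in WT mTEClo and 65.4 to 133 in KO, Lyz2 making up most of both, and the mTEChi list to 1679 to 1927 in WT and 1245 to 1461 in KO. H2-Aa made up most of both mTEChi sums, at 1626 to 1864 in WT and 1197 to 1398 in KO. Ciita was also lower in KO mTEClo and Cd40 overlapped. Aire (7.75 to 12.8 in WT and 16.3 to 33.1 in KO), Cd80 (2.92 to 3.84 and 4.87 to 6.76) and Cd86 were higher in KO. Their part in the keratin values was not tested.

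The higher genes were Krt15, Krt4 (2.08, limma adjusted p = 0.0113), Krt75 (1.55, limma adjusted p = 0.000185), Krt222 (1.17, limma adjusted p = 0.0474), Krt19 (1.0, limma adjusted p = 0.00413) and Krt74, which was named after its values were seen (0.91, limma adjusted p = 0.00725). Krt75 was 2.54, 3.75 and 2.65 RPKM in WT mTEClo and 9.48, 8.32 and 8.67 in KO. Krt19 was 51.8, 75.4 and 42.4 in WT and 118, 92.8 and 120.1 in KO. Neither gene had overlapping libraries, and 5 of the 6 genes, all but Krt222, were lower in KO mTEChi, where 46 of the 52 keratins were lower. Krt74 passed the filter only through WT mTEChi.

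The 6 genes lower in KO mTEClo were also lower in KO mTEChi. There 46 of the 52 keratins (88.5%) were lower, so this overlap is near the share of all keratins. Krt73, among the 6, passed the filter only through WT mTEChi and so had to be lower in KO mTEChi. Krt1 was 4.73, 11.8 and 5.40 RPKM in WT mTEClo and 2, 2.28 and 1.35 in KO (-1.82, limma adjusted p = 0.003), and Krt10 was 23.6, 41.4 and 28.7 in WT and 18.4, 17.5 and 14.3 in KO (-0.87, limma adjusted p = 0.00388). The others were Krt84 (-1.18, limma adjusted p = 0.00133), Krt73 (-0.98, limma adjusted p = 0.00296), Krt7 (-0.55, limma adjusted p = 0.0128) and Krt5 (-0.44, limma adjusted p = 0.049). The calls of Krt5 and Krt222 lay at the threshold: leaving out any mTEClo library but WT replicate 2 gave limma adjusted p of 0.0916 to 0.189 for Krt5 and 0.0966 to 0.196 for Krt222. Further calls were lost under single alternatives. Krt4 missed without WT mTEClo replicate 1 (limma adjusted p = 0.0607), without KO mTEClo replicate 3 (0.0584) and with the mTEClo libraries fitted alone (0.0629). Krt7 missed without WT or KO mTEClo replicate 3 (limma adjusted p = 0.0605 and 0.0594), Krt10 with the mTEClo libraries fitted alone (0.0517) and Krt73 with a pseudocount of 1 (0.115).

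**Figure D4:**
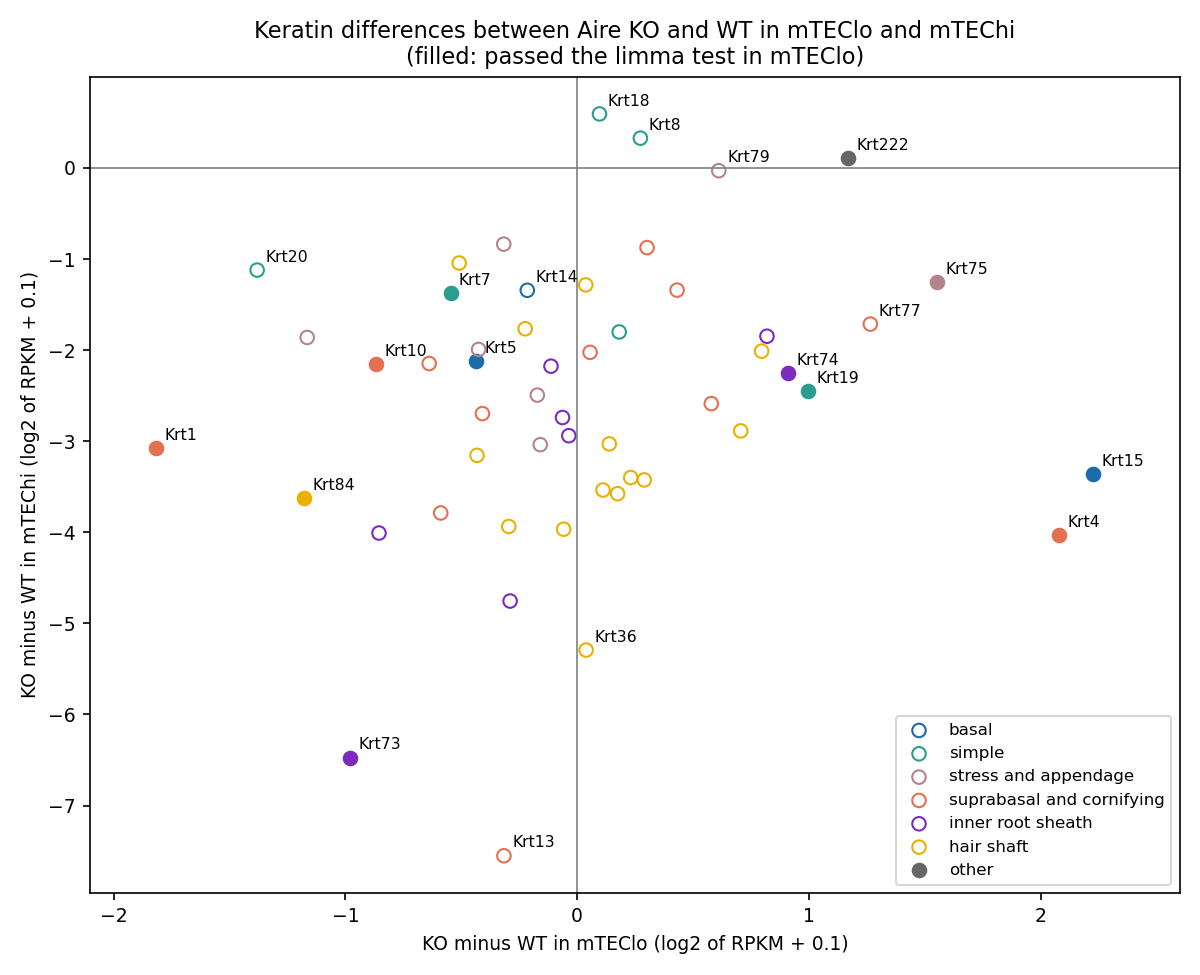
Log2 difference between KO and WT of each of the 52 keratins in mTEClo (x axis) and in mTEChi (y axis), coloured by role, with filled points for genes that passed the limma test in mTEClo. Most points lie below 0 on the y axis, Krt15, Krt4, Krt75, Krt19 and Krt74 lie to the right and below, and Krt18 and Krt8 lie above 0.

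In cTEC, 10 keratins were higher in KO and 0 lower, beside 13.3% and 6.76% of all tested genes (limma), and 19 were higher and 2 lower at an unadjusted p under 0.05. The 10 were Krt79 (3.6, limma adjusted p = 2.68e-06), Krt77 (2.84), Krt222 (2.78), Krt4 (2.55), Krt16 (2.40, limma adjusted p = 4.96e-06), Krt78 (2.24), Krt23 (1.76), Krt15 (1.42), Krt75 (1.31) and Krt80 (1.11). Krt79 was 0.242, 0.173 and 0.336 RPKM in WT cTEC and 8.37, 2.42 and 3.27 in KO. Krt16 was 0.39, 0.497 and 0.702 in WT and 2.44, 2.90 and 4.40 in KO. The KO libraries were above the WT libraries for both, and Krt222, Krt15, Krt75 and Krt4 were also higher in KO mTEClo.

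The KO cTEC libraries also differed from WT cTEC in markers of other cells. Aire RNA was 95.6, 35.9 and 27.0 RPKM in KO cTEC and 2.09, 3.95 and 7.39 in WT cTEC. Cd80, a costimulatory ligand of mature medullary and dendritic cells, was 21.3, 8.81 and 6.15 in KO and 1.5, 3.98 and 5.76 in WT. The 6 dendritic cell and macrophage markers summed to 104 to 148 in KO and 22.7 to 61.2 in WT. Lyz2 made up most of both sums, at 96.1 to 144 in KO and 19.3 to 54.3 in WT. Each other gene of that list overlapped between the genotypes. KO cTEC replicate 1 was highest in Aire, Cd80 and Krt79. Their part in the keratin result was not tested.

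The cTEC result rested on the spread shared by all groups. Fitted on the cTEC libraries alone, limma called 0 keratins, and their smallest adjusted p was 0.0677. At an unadjusted p under 0.05, 12 were higher and 1 lower. Of all 19451 tested genes, that fit called 12 higher and 6 lower, against 2593 and 1315 with all groups fitted. The loss of calls was therefore not particular to keratins. Leaving out KO cTEC replicate 3 gave 19 higher and 0 lower keratins, beside 3135 higher and 2147 lower of all tested genes. Within KO, mTEClo had 19 keratins higher than cTEC and 4 lower, beside 19.3% and 17.5% of all tested genes, and 13 higher and 7 lower with centring on housekeeping genes, beside 1779 and 8760 of all tested genes. Of the 25 keratins higher in this step in WT, 16 were also higher in KO. The matching share over all tested genes was not counted.

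The balance within partner pairs was compared as the log2 ratio of the type I to the type II gene in each library. There were 25 comparisons of 5 pairs, and with 3 libraries against 3 the exact two-sided permutation test cannot go below p = 0.1 (0.139 after Benjamini-Hochberg adjustment), so none could pass. Krt14 over Krt5 had a mean of -1.37 in WT mTEChi and -0.59 in KO mTEChi, so Krt5 fell more than its partner. Krt18 over Krt8 was 0.73 in WT cTEC, 0.53 in WT mTEClo and -0.18 in WT mTEChi, and 0.09 in KO mTEChi. These groups did not overlap.

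Krt10 over Krt1 was 2.18 in WT mTEChi and 2.16 in WT mTEClo, and 3.10 and 3.11 in the KO groups, again without overlap between genotypes. Krt13 over Krt4 was 0.71 in WT mTEChi and -2.81 in KO mTEChi. Krt13 was near 0 in KO mTEChi, so the pseudocount of 0.1 largely set that value, and the ratio of the means there was 0.0072. Krt13 over Krt4 was also lower in KO in mTEClo (-1.06 in WT and -3.45 in KO) and cTEC (-0.51 and -3.75). In these 2 populations the KO mean of Krt4 was 507% and 609% of WT, and that of Krt13 78.1% and 64.7%. Krt16 over Krt6a was -3.54 in WT cTEC, 1.43 in WT mTEClo and 3.03 in WT mTEChi. Its difference between KO and WT mTEChi was 0.50 with overlapping libraries (exact permutation p = 0.3).

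**Figure D5:**
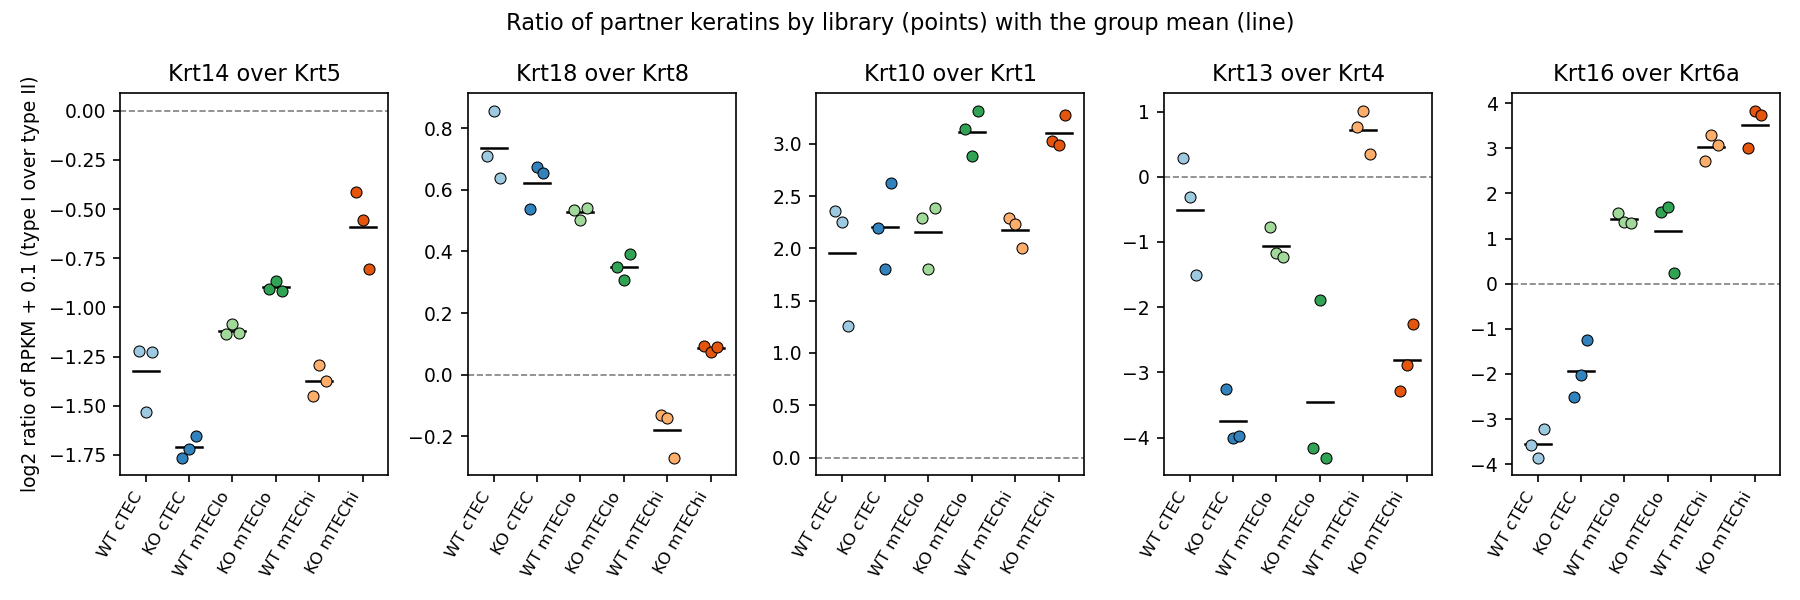
Log2 ratio of RPKM + 0.1 of the type I over the type II gene of 5 partner pairs, by library (points) with the mean of 3 (line). Krt14 over Krt5 is higher in KO than in WT mTEChi (-0.59 and -1.37), Krt13 over Krt4 is lower in KO in all 3 populations, and Krt10 over Krt1 is higher in both KO medullary groups. Krt13 is near 0 in KO mTEChi, so the added 0.1 largely sets its ratio there.

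Genes that anchor or control keratins were followed on 2 lists. Of 16 linkers, proteins of desmosomes, hemidesmosomes and the filament network, 11 (68.8%) were lower and 1 (6.25%) higher in KO mTEChi, beside 52.8% and 9.57% of all tested genes, with a median log2 difference of -0.54 beside -0.39 over all tested genes. Jup, the desmosomal plakoglobin, was 49.1, 52.4 and 49.8 RPKM in WT mTEChi and 22.7, 23.3 and 22.4 in KO (-1.14, limma adjusted p = 2.44e-09). Pkp1, a plakophilin of stratified epithelium, was 75.6, 80.7 and 80.2 in WT and 53.3, 52.3 and 51.2 in KO (-0.59, limma adjusted p = 8.54e-07). Cd151, a tetraspanin partner of hemidesmosome integrins, fell by 1.13 on the log2 scale (limma adjusted p = 9.79e-07). The integrin Itga6 of hemidesmosomes was higher (0.38, limma adjusted p = 0.0085). In mTEClo 2 linkers were higher and 3 lower, beside 7.93% and 8.04% of all tested genes, and in cTEC 2 higher and 4 lower, beside 13.3% and 6.76%.

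Of 15 transcription factors known to act on keratin genes, 8 (53.3%) were lower in KO mTEChi by limma, beside 52.8% of all tested genes, with a median of -0.58. Klf5, a factor of proliferating epithelium, fell by 1.36 (limma adjusted p = 2.13e-06) and Grhl2, a factor of epithelial barriers, by 1.25 (limma adjusted p = 6.35e-08). Hoxc13, the homeobox factor of hair keratin genes, was 0.48, 0.411 and 0.678 RPKM in WT mTEChi and 0.0284, 0.0209 and 0.069 in KO (-2.15). It is among the 8, but it was under 0.1 RPKM in every library outside WT mTEChi. It therefore passed the filter only through WT mTEChi and had to differ. Msx2, another gene of this list, also passed the filter only with WT mTEChi libraries counted. The count of 8 was not repeated without such genes. Trp63, the master factor of stratified epithelium, named after its values were seen, was 20.8, 19.2 and 20.8 in WT and 19.5, 18.7 and 19.5 in KO mTEChi, which overlapped (-0.07, limma adjusted p = 0.685). In mTEClo 2 regulators were higher and 1 lower, and in cTEC 3 higher and 2 lower, beside the same shares of all tested genes as for the linkers.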

How the data were processed

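RNA-seq libraries of 18 sorted samples were used as deposited, 1 table per library. The levels are RPKM computed by the authors, and a second column of signal (aligned bases per gene, as deposited) gave the depth. Software named in the submitters' processing notes is CASAVA 1.8.2, with mm10 as the genome; the gene annotation and aligner options were not given in any source at hand. Signal values did not resolve into whole reads, so no count test was run. Genes at 0.1 RPKM or more in at least 3 libraries were kept (19451 of 23063), RPKM was transformed as log2(RPKM + 0.1), which understates changes of low genes, and 6 group means were fitted with limma 3.58.1 (R 4.3.3; trended empirical Bayes, Benjamini-Hochberg over all tested genes, threshold 0.05). The script was tested on simulated data. Pair ratios used exact permutation tests (scipy 1.17.1); figures used matplotlib 3.10.9. Named by rule were keratins with a group mean of at least 10 RPKM, the members of the 5 pairs, the 3 largest rises and falls of each comparison, and up to 3 called linkers and regulators per direction. Members, role lists and named genes were chosen with earlier results of these data known. Alternatives were other pseudocounts, no filter, quantile normalisation, centring on housekeeping genes, a replicate block, a fit on the compared groups alone and leaving out each library; counting only keratins that passed the filter without WT mTEChi, and the block on WT cTEC and WT mTEClo alone, were added after seeing the data. Deviations of same-numbered libraries correlated above 0.1 in all 3 pairs only between WT cTEC and WT mTEClo, among the groups compared (0.107, 0.168 and 0.154).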

Additional observations from a re-analysis of the deposited data

Results flagged for a closer look

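The difference between KO and WT was not the same in mTEChi as in mTEClo for 26 of the keratins named here, by a limma test of the difference between the 2 effects (log2 scale, mTEChi minus mTEClo, 3 libraries per group). Among basal keratins it was -5.59 for Krt15, -1.69 for Krt5 and -1.13 for Krt14. Among simple keratins it was -3.44 for Krt19, -1.98 for Krt23 and -0.83 for Krt7, and positive for Krt18 alone, at 0.50. Among stress keratins it was -2.80 for Krt75, -2.32 for Krt6a, -1.57 for Krt16 and -0.52 for Krt17.

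Among suprabasal keratins the difference was -7.23 for Krt13, -6.11 for Krt4, -3.17 for Krt76, -2.98 for Krt77, -2.08 for Krt80, -1.29 for Krt10, -1.26 for Krt1 and -1.18 for Krt78. Among inner root sheath keratins it was -5.49 for Krt73, which passed the filter on low values only through WT mTEChi, -4.46 for Krt72 and -3.15 for Krt71. Among hair shaft keratins it was -5.33 for Krt36, -3.59 for Krt33b, -2.81 for Krt31 and -2.45 for Krt84. Over all tested genes 40.9% had a negative and 6.01% a positive difference. Of these genes, Krt15, Krt19, Krt75 and Krt4 were higher in KO mTEClo and lower in KO mTEChi by the tests within each population.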

How the results depend on the processing

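Over 65 log2 differences of single keratins between KO and WT, the alternatives gave 845 values, of which 775 kept direction and call, 42 lost the call, 16 gained it and 12 changed sign. All but that of Krt86 were of differences that had not passed the test. For Krt79 in mTEChi they were 0.054 (quantile normalisation), 0.39 (housekeeping genes), and a range of -0.15 to 0.088 over libraries left out. For Krt86 in mTEChi, -1.04 and called in the analysis as reported, it was 0.061 (quantile). In cTEC they were 0.0042 for Krt14 (quantile), with a range of -0.24 to 0.016 over libraries left out, and -0.020 for Krt10 (quantile), with a range of -0.078 to 0.19. For Krt18 in mTEClo it was -0.17 (housekeeping genes), and for the ratio of Krt16 to Krt6a in mTEChi -0.050 (pseudocount 1). The cause was not tested.

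Counts of called keratins moved by over 1.5 times under these settings. They were KO against WT mTEClo centred on housekeeping genes (19) and KO against WT cTEC without KO cTEC replicate 3 (19). Fitted on the compared groups alone, KO against WT cTEC (0) and KO mTEClo against KO cTEC (13) also moved. Over all tested genes these settings called 7900, 5282, 18 and 3761, in that order. The cause was not tested. Leaving out each library in turn gave 10 to 19 keratins for KO against WT cTEC, 47 to 48 in mTEChi, 8 to 12 in mTEClo and 40 to 44 for the difference between the effects. At 1 RPKM, the mean number of keratins detected was 15 in WT cTEC, 22.3 in KO cTEC, 23.3 in WT mTEClo, 22 in KO mTEClo, 45 in WT mTEChi and 27.7 in KO mTEChi, against 33, 35.3, 37.3, 38.3, 52 and 35.7 at 0.1 RPKM. Replicate numbers paired the libraries only of WT cTEC and WT mTEClo, where a replicate block gave 28 keratins in the fit of all groups and 26 in these groups alone, against 28 without it. Over all groups the median correlation of same-numbered libraries was 0.006. With the block in the fit of all groups, 49 keratins were called in mTEChi, 11 in mTEClo and 11 in cTEC.

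Levels below 1 RPKM rest on few reads in the shallower libraries, read counts per gene could not be recovered, and copies that share reads cannot be separated.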

Other observations

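Keratin-associated proteins, which cross-link hair keratins, were looked at beside the keratins. The tables hold 52 of these genes, of which 12 passed the filter on low values. From WT mTEClo to WT mTEChi, 10 of the 12 were higher by limma (median log2 difference 2.14), beside 41.6% higher and 31.1% lower over all tested genes. In KO against WT mTEChi, 7 of the 12 were lower by limma (median -1.38), beside 52.8% and 9.57%. Since genes could pass the filter through WT mTEChi alone, these counts describe only the genes that passed.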
